A study of Sus scrofa with 48 samples.

Results

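The enzymes described here make NADPH, the reducing agent of fatty acid synthesis, in the cytosol or act beside those that do. They are 7 genes, *ME1*, *PGD*, *PGLS*, *IDH1*, *TKT*, *TALDO1* and *MDH1*, among the 13010 genes that could be named on a porcine array. They were chosen by symbol, and every probe was used whose gene name in the array files, or whose transcript, was that of a member, provided that the scanner software had marked its spot as well above background for 9 or more of the 12 pigs of some group. This gave 18 probes, and all 18 were well above background on all 48 arrays. *MDH1* had 5 probes, *ME1*, *TKT* and *TALDO1* had 3 each, *PGD* had 2, and *PGLS* and *IDH1* had 1 each.

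The samples were subcutaneous adipose tissue (SCAT) of 48 pigs aged 132 days, castrated males of the Large White breed, with 1 array per pig. The pigs belonged to a low and a high line, bred apart for residual feed intake (RFI), which is the feed eaten beyond what maintenance and growth predict, so that low RFI pigs are the more efficient ones. Pigs of each line had free access to a feed that was rich in fat and fiber (HF) or to one that was poor in both and rich in starch (LF), which made 4 groups of 12 pigs, each named by its diet followed by its line. Fat, fiber and starch were changed together, so that their effects cannot be told apart. The study reports that HF pigs also ate less and ended lighter and leaner, which cannot be separated from the feed itself. A difference between lines concerns these 2 selected lines.

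NADPH for lipid synthesis is made in the cytosol on several routes. Malic enzyme (*ME1*) turns malate into pyruvate, with NADPH as a product, and cytosolic malate dehydrogenase (*MDH1*) interconverts oxaloacetate and malate and so feeds it. The oxidative branch of the pentose phosphate pathway makes NADPH from glucose 6-phosphate, and *PGLS* and *PGD* encode its lactonase and its second dehydrogenase. Transketolase (*TKT*) and transaldolase (*TALDO1*) of the non-oxidative branch return its sugars to glycolysis, and cytosolic isocitrate dehydrogenase (*IDH1*) is a further source, beside enzymes of folate metabolism. In pigs adipose tissue is the main site of fatty acid synthesis.

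Levels are given as the log2 of the background-subtracted spot brightness minus the median of the array, so that 0 is the level of the median probe. Probes differ in how well they bind, and levels are therefore compared between pigs for 1 probe and not between probes. Adipocyte markers were present in all groups: all 8 listed markers were measured, and their mean level per array lay between 7.21 and 8.01. The share of probes well above background was between 62.2% and 81.9% per array, and 3 arrays, all of HF pigs, were under 68%. Each of the 6 slides held 2 pigs of each group, and the slides were scanned on 2 dates with 24 arrays each. In a whole tissue, fewer cells of a type and less RNA per cell cannot be told apart.

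*ME1* was the gene of this set that was called by diet, with lower levels in HF pigs on all 3 probes. Of the 3 probes, O15000 and A_72_P444471 carried the same 60 bases and A_72_P306288 another stretch, so that *ME1* was measured at 2 sites. The first 30 bases of each site, printed because the change below was read separately at each, were:
ME1 O15000 and A_72_P444471: cccttttcatagaggaaactaaggggaaga
ME1 A_72_P306288: gaaggtaacatttagccaagaatttcctca

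On probe O15000 the lowest, median and highest level were 5.42, 6.39 and 7.38 in HF low RFI pigs, and 5.04, 5.98 and 7.11 in HF high RFI pigs. They were 4.83, 7.07 and 7.73 in LF low RFI pigs, and 5.19, 7.25 and 7.75 in LF high RFI pigs. The groups overlapped. In each LF group 1 pig (LF low RFI replicate 7 and LF high RFI replicate 11) was below nearly all HF pigs, while 22 of the 24 LF pigs were above the HF mean and 20 of the 24 HF pigs below the LF mean. HF pigs had a mean level of 6.29 ± 0.62 and LF pigs one of 6.99 ± 0.75 (SD, n = 24 per diet). The log2 fold change was -0.71 (SE 0.19, 95% interval -1.09 to -0.32, limma adjusted p = 0.0120), a 1.63-fold lower level under the HF diet. The twin probe A_72_P444471 gave -0.69 (SE 0.20, limma adjusted p = 0.0154).

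At the other site, probe A_72_P306288, the lowest, median and highest level were 3.40, 4.79 and 5.85 in HF low RFI pigs and 2.32, 4.58 and 6.05 in HF high RFI pigs. They were 3.15, 5.74 and 6.55 in LF low RFI pigs and 3.45, 6.15 and 6.80 in LF high RFI pigs. The groups overlapped here too, with 20 of the 24 LF pigs above the HF mean and 22 of the 24 HF pigs below the LF mean. The log2 fold change was -1.0 (SE 0.26, 95% interval -1.52 to -0.48, limma adjusted p = 0.0082), a 2.0-fold lower level. The change on this probe was larger than on O15000 by 0.30 on the log2 scale (SE 0.10), given without a test because it was singled out after the values were seen, and the site cannot be told apart from how each probe binds. The twin probes' changes differed by 0.01 (SE 0.02), and their levels differed from pig to pig with an SD of 0.058. A further probe, A_72_P268141, has no gene name in the array files but is assigned to *ME1* by the study's own annotation, and it was not counted as a member. It gave -0.63 (SE 0.16, limma adjusted p = 0.00682), which passed the cut-offs.

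A probe was called differentially expressed (DEP) where limma's p was under 0.01 before and under 0.08 after Benjamini-Hochberg adjustment over the 44356 probes tested, and the levels differed by more than 1.1-fold. By diet, 3 of the 18 member probes were DEP, all 3 of *ME1* and all lower under the HF diet, beside 13.1% of all probes called in either direction, 7.44% called lower and 5.61% called higher. Thus the share of called members was near the background, and the calls came from a single gene. An unadjusted limma p under 0.05 was found for 5 probes, the 3 of *ME1*, 1 of *PGD* and that of *IDH1*, all with lower levels in HF pigs. The share of all probes under this unadjusted cut-off is not given here or below, so such counts are not read as results about the members. Of the 18 probes 12 had a negative log2 fold change, beside 55.8% of all probes.

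**Figure D1:**
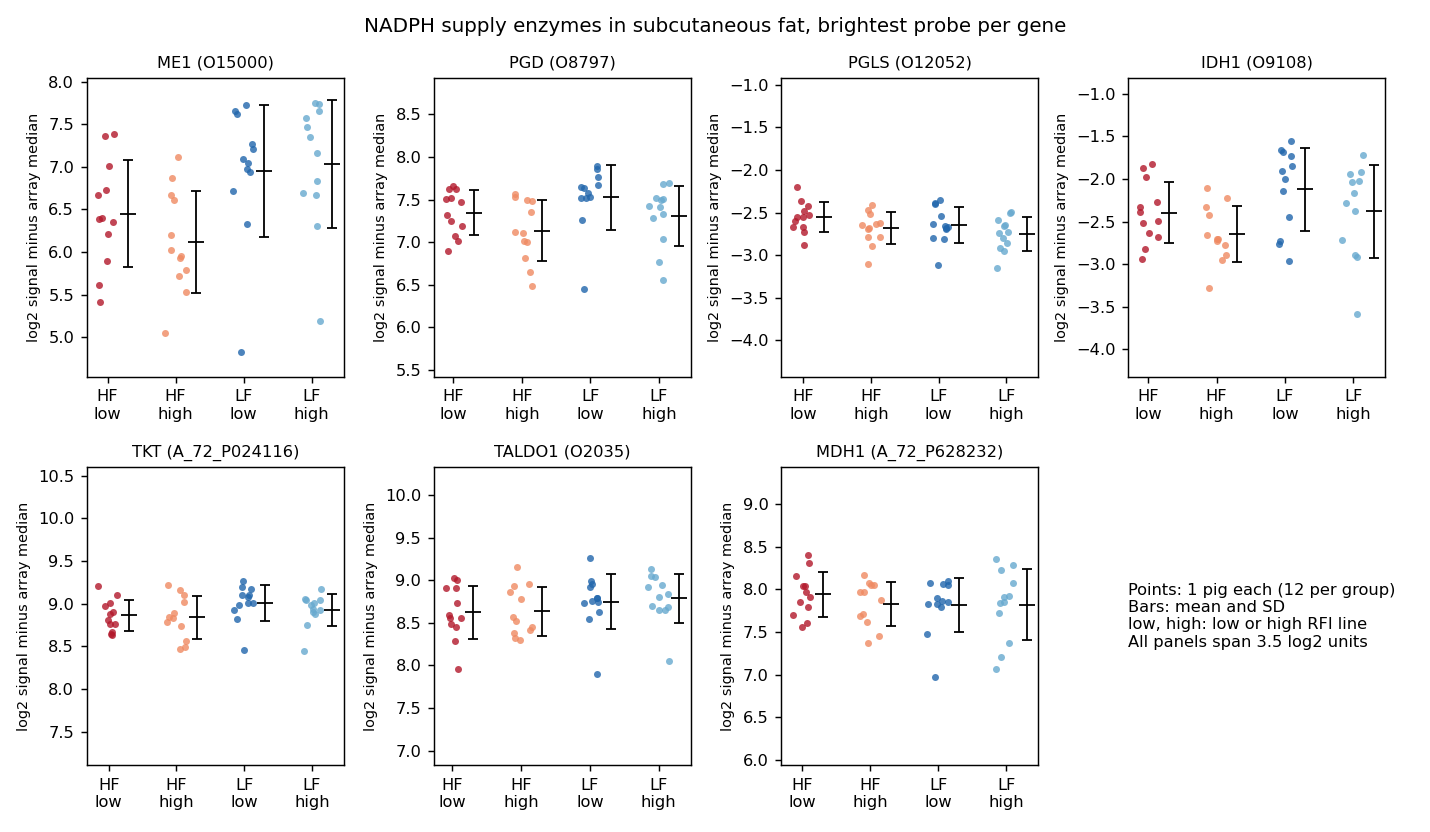
Level of each member in each pig, on the brightest probe of its gene. The horizontal axis gives the 4 groups and the vertical axis the log2 signal minus the array median, points are pigs (12 per group), and bars show the mean and SD. *ME1* is lower in both HF groups with overlap, and the 2 lowest LF pigs of *ME1* are also low for *PGD*, *TKT*, *TALDO1* and *MDH1*.

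The diet difference of *ME1* was examined by line, scan date and slide. In low RFI pigs alone the log2 fold change was -0.80 on A_72_P306288 (95% interval -1.53 to -0.06) and -0.50 on O15000 (-1.04 to 0.05). In high RFI pigs it was -1.21 (-1.94 to -0.47) and -0.91 (-1.46 to -0.37). By limma 0 of the 18 probes were called within either line, where 3.04% (low RFI) and 1.66% (high RFI) of all probes were called. The methods' two-way analysis of variance also called 0 in either line, and 1 probe in the low line and 3 in the high line, all of *ME1*, had an unadjusted limma p under 0.05. In high RFI pigs the call depended on the setting. With slide or scan date as a block all 3 *ME1* probes were called, and the unblocked adjusted p lay between 0.0848 and 0.102. The difference between the lines in their response, the interaction, was 0.41 on O15000 with a 95% interval from -0.36 to 1.18 (limma adjusted p = 1.0). By interaction 0 of 18 member probes were called, 0 had an unadjusted p under 0.05, and 0% of all probes were called.

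The mean *ME1* level changed from the first scan date to the second by -0.63 on A_72_P306288, -0.47 on A_72_P444471 and -0.42 on O15000. Within the first scan date the diets differed in *ME1* by -1.19 on A_72_P306288 and -0.84 on O15000 (24 arrays, limma adjusted p = 0.00939 and 0.0125). Within the second date the corresponding values were -0.81 and -0.57 with wider intervals (-1.67 to 0.05 and -1.23 to 0.08), and neither was called. With slide as a block all 3 probes were called. The positions on a slide were not balanced, and position 1 held 4 HF low RFI and 0 LF low RFI arrays. With array position as a block *ME1* was at -0.85 on A_72_P306288 and -0.60 on O15000 (limma adjusted p = 0.0569 and 0.0748, both called), whereas A_72_P444471, at -0.58, lost its call (limma adjusted p = 0.0972). Slide by slide, the difference on O15000 was negative on 6 of 6 slides and ranged from -1.23 to -0.01, and the value near 0 came from slide 6. On that slide the other probes were at 0.0011 (A_72_P306288) and 0.025 (A_72_P444471), so that each of them was negative on 5 of 6 slides. Without the 3 arrays that had under 68% of their probes above background, a choice made after seeing the data, 3 probes were called as before.

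**Figure D2:**
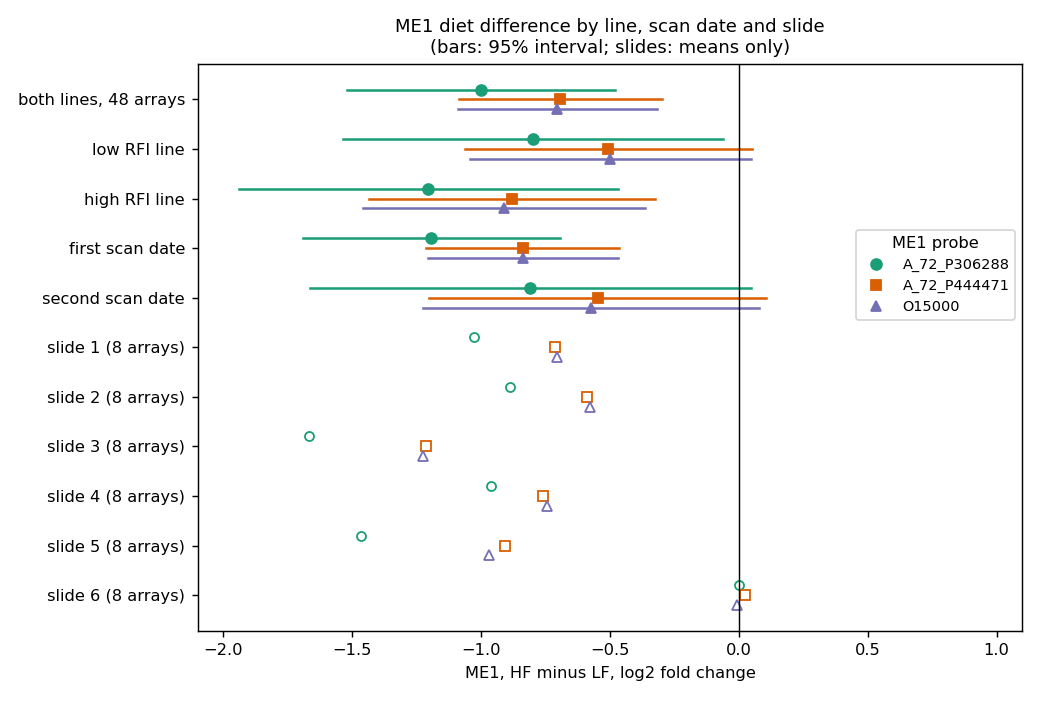
Diet difference of the 3 *ME1* probes in all pigs, in each line, in each scan date and on each slide. The horizontal axis is the log2 fold change (HF minus LF); filled symbols have 95% intervals from limma and open symbols are differences of means on 8 arrays. The differences lie left of 0 in both lines and both dates, and slide 6 is at about 0.

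Phosphogluconate dehydrogenase (*PGD*) releases NADPH and carbon dioxide in the oxidative branch. Its 2 probes, A_72_P411558 and O8797, shared 34 bases and correlated at r = 0.97 over the 48 arrays after the group means had been taken off. On O8797 the lowest, median and highest level were 6.90, 7.39 and 7.66 in HF low RFI pigs, 6.48, 7.11 and 7.57 in HF high RFI pigs, 6.45, 7.60 and 7.89 in LF low RFI pigs and 6.56, 7.42 and 7.70 in LF high RFI pigs. The 4 groups overlapped over most of their range. The diet difference was -0.18 (95% interval -0.37 to 0.01, limma adjusted p = 0.235) on O8797 and -0.21 (-0.40 to -0.02, limma adjusted p = 0.143) on A_72_P411558, and neither was called. A_72_P411558 was called with array weights and within the first scan date, at -0.26 in both (limma adjusted p = 0.0787 within that date).

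Low RFI pigs had a higher mean level of *PGD* than high RFI pigs on both probes, although not past the cut-offs. On A_72_P411558 the mean level was 7.06 ± 0.33 in the low RFI line and 6.84 ± 0.36 in the high RFI line (SD, n = 24 per line). The difference between lines was 0.23 (95% interval 0.04 to 0.41, limma adjusted p = 0.322), and on O8797 it was 0.22 (0.02 to 0.41, limma adjusted p = 0.381). It was of like size under both diets on A_72_P411558, 0.25 in HF pigs and 0.20 in LF pigs, and positive on 5 of 6 slides.

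The lactonase *PGLS*, which acts between the dehydrogenases of the oxidative branch, had 1 probe, O12052. It was dim: its processed signal lay between 32 and 77.3 brightness units beside a local background between 26 and 39. Which strand it detects was not tested. The lowest, median and highest level were -2.88, -2.55 and -2.20 in HF low RFI pigs, -3.10, -2.66 and -2.42 in HF high RFI pigs, -3.12, -2.66 and -2.35 in LF low RFI pigs and -3.15, -2.73 and -2.49 in LF high RFI pigs. The groups covered almost the same range. The diet difference was 0.08 (95% interval -0.05 to 0.20, limma adjusted p = 0.454) and the line difference 0.12 (-0.00 to 0.24, limma adjusted p = 0.512).

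Cytosolic isocitrate dehydrogenase (*IDH1*) makes NADPH while it turns isocitrate into oxoglutarate. Its only probe, O9108, was dim as well, with a processed signal between 20.2 and 123 brightness units and a local background between 24 and 32. A run of 21 of its 60 bases, in capitals below, appeared as its reverse complement in probe A_72_P757430, which the array files assign to the mitochondrial paralogue *IDH2*:
IDH1 O9108: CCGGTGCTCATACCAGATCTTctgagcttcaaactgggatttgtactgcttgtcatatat
IDH2 A_72_P757430: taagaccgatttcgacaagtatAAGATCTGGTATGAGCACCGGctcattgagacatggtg

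These 2 probes thus hold opposite strands of a shared run. Which strand each of them detects was not tested, so it is not known whether O9108 measured *IDH1* RNA. The values of O9108 are given under the name that the array files use. Its lowest, median and highest level were -2.93, -2.44 and -1.83 in HF low RFI pigs, -3.28, -2.70 and -2.11 in HF high RFI pigs, -2.97, -1.96 and -1.55 in LF low RFI pigs and -3.59, -2.22 and -1.72 in LF high RFI pigs. The medians were lower in the HF groups and the ranges overlapped. The diet difference was -0.27 (95% interval -0.52 to -0.02, limma adjusted p = 0.157), and it was called only with normexp background correction (-0.17) and with array weights (-0.38). The line difference was 0.25 (0.00 to 0.51, limma adjusted p = 0.466). It was -0.05 within the first scan date and 0.56 within the second.

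Transketolase (*TKT*) and transaldolase (*TALDO1*) exchange carbon units between sugar phosphates of the non-oxidative branch. On the brightest *TKT* probe, A_72_P024116, the lowest, median and highest level were 8.64, 8.84 and 9.21 in HF low RFI pigs, 8.47, 8.84 and 9.21 in HF high RFI pigs, 8.46, 9.04 and 9.26 in LF low RFI pigs and 8.44, 8.96 and 9.17 in LF high RFI pigs. The groups overlapped almost fully. The diet difference was -0.12 (95% interval -0.24 to 0.00, limma adjusted p = 0.211), and the other probes, A_72_P177501 and O13899, gave -0.08 and -0.14 and were not called. A probe without a gene name shared 49 bases with A_72_P024116, and its identifier names the same transcript record as that probe. It lies outside the rule for members and was examined after its values were seen. It differed by -0.17 (SE 0.06, limma adjusted p = 0.0637), which passed the cut-offs.

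On the brightest *TALDO1* probe, O2035, the lowest, median and highest level were 7.96, 8.58 and 9.02 in HF low RFI pigs, 8.30, 8.54 and 9.15 in HF high RFI pigs, 7.90, 8.77 and 9.26 in LF low RFI pigs and 8.05, 8.82 and 9.13 in LF high RFI pigs. The groups overlapped. The diet difference was -0.14 (95% interval -0.31 to 0.03, limma adjusted p = 0.306) on O2035 and -0.16 on both A_72_P175181 and A_72_P293424, with limma adjusted p = 0.236 and 0.438. O2035 and A_72_P175181 shared 53 bases and correlated at r = 0.99, whereas A_72_P293424, which shared no long run with them, correlated with them at 0.79 and 0.81. The unnamed probe A_72_P141966, outside the rule, shared 21 bases with O2035 and A_72_P175181, and it was not called (-0.02, SE 0.08, limma adjusted p = 0.882). On A_72_P293424 the diet difference was -0.33 within the first scan date and 0.01 within the second.

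Cytosolic malate dehydrogenase (*MDH1*), the NAD-dependent enzyme that makes the malate used by malic enzyme, was not called by diet on any probe. On its brightest probe, A_72_P628232, the lowest, median and highest level were 7.56, 7.94 and 8.40 in HF low RFI pigs, 7.37, 7.92 and 8.17 in HF high RFI pigs, 6.97, 7.86 and 8.10 in LF low RFI pigs and 7.07, 7.88 and 8.35 in LF high RFI pigs. The group medians differed by less than 0.1. The diet difference was 0.07 on A_72_P628232 (95% interval -0.11 to 0.25, limma adjusted p = 0.673) and between 0.05 and 0.09 on the other 4 probes, none of them called. The 5 probes correlated with each other at r between 0.94 and 0.99, and 3 of them (A_72_P588386, A_72_P628232 and O332) shared runs of 35 to 48 bases. *MDH1* levels were lower by between 0.29 and 0.45 on the second scan date than on the first, a difference larger than that between the diets. From the first date to the second *PGD* changed by -0.26 and -0.30, and *TALDO1* by between -0.02 and -0.31. *TKT* changed by between -0.05 and -0.21, *IDH1* by -0.06 and *PGLS* by 0.09, and the change of *ME1* is given above. Each date held 3 of the slides, with 12 pigs of each diet.

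**Figure D3:**
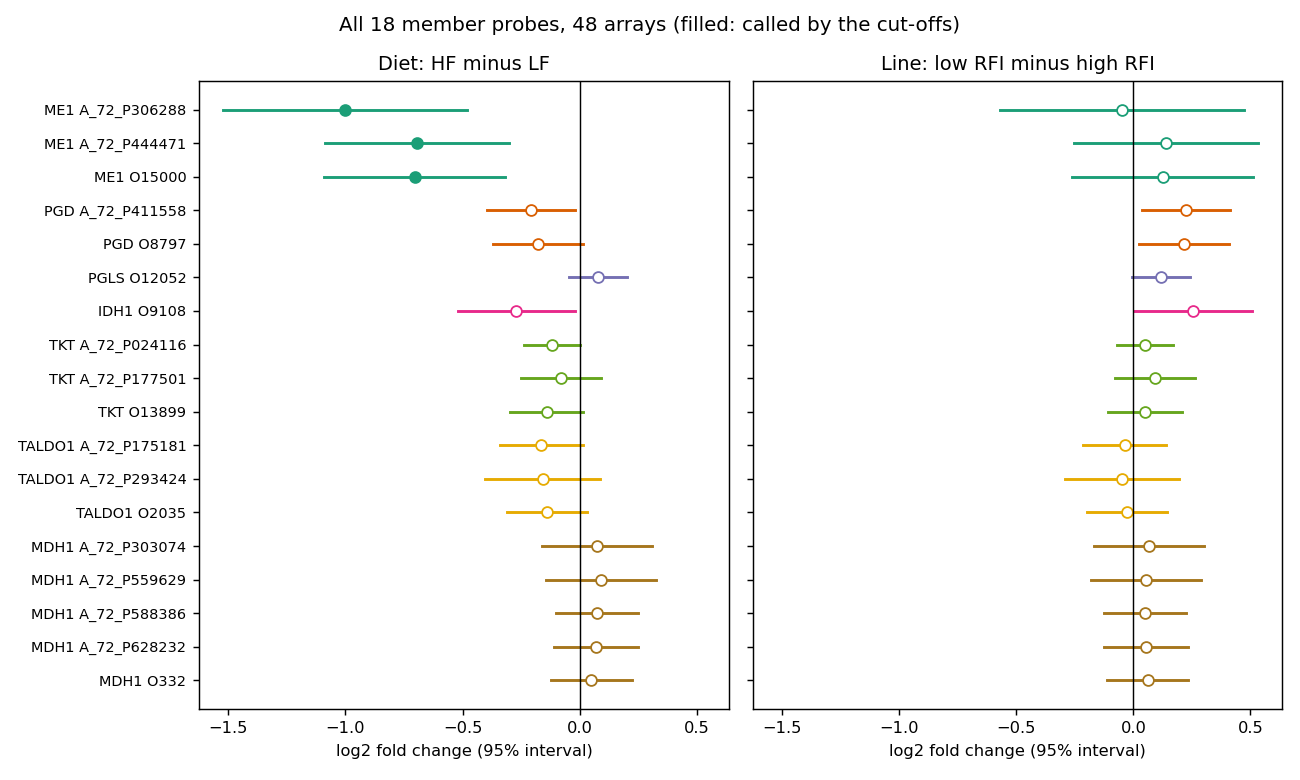
Log2 fold changes of all 18 member probes with 95% intervals (limma, 48 arrays), on the left for diet (HF minus LF) and on the right for line (low minus high RFI), coloured by gene. Filled points passed the cut-offs. The 3 *ME1* probes, at -1.0, -0.69 and -0.71, are the only filled ones, and the *PGD* and *IDH1* intervals for line lie just right of 0.

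By line, 0 of the 18 member probes were called by limma, beside 1.37% of all probes, and 0 by the methods' two-way analysis of variance. An unadjusted limma p under 0.05 was found for 3 of them, the 2 *PGD* probes, which overlap in sequence, and *IDH1*, with higher levels in low RFI pigs. The line differences of the 18 probes lay between -0.05 and 0.25. For *ME1* the line difference was 0.12 on O15000 (95% interval -0.26 to 0.51) and -0.05 on A_72_P306288 (-0.57 to 0.47). The interval on O15000 thus reached a level 1.42-fold higher in low RFI pigs.

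*ME1* was also set against each other member on the same array. Since *ME1* was singled out for its diet difference, these values are a description, with no test. From LF to HF the level of *ME1* (O15000) dropped relative to *PGD* (O8797) by 0.53 (SE 0.12), relative to *TKT* by 0.59 (SE 0.16), relative to *TALDO1* by 0.57 (SE 0.14) and relative to *MDH1* by 0.77 (SE 0.13). Relative to the dim probes of *PGLS* and *IDH1*, *ME1* dropped by 0.78 (SE 0.20) and by 0.43 (SE 0.16). The LF pigs above the HF mean of these differences numbered 20 to 22 of 24.

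The pigs of a group differed widely in *ME1*. The SD within groups was 0.69 on O15000 and 0.94 on A_72_P306288, larger than on 95% and 98.2% of all probes, whereas *TKT* (A_72_P024116) had an SD of 0.21, *PGD* (O8797) of 0.34 and *MDH1* (A_72_P628232) of 0.32, beside a median of 0.29 over all probes. Pigs with little *ME1* also had low levels of several other members. The pig with the lowest *ME1* of its group, LF low RFI replicate 7, had the lowest *PGD*, *PGLS*, *IDH1*, *TKT*, *TALDO1* and *MDH1* of its group as well, and LF high RFI replicate 11 had the lowest *PGD*, *TKT*, *TALDO1* and *MDH1*. In the HF high RFI group the lowest *ME1*, in replicate 9, went with the lowest *PGD* and the second lowest *TKT*, but ranked 4th from the lowest of 12 for *MDH1* and 5th for *TALDO1*. In the HF low RFI group the *ME1* sites had different lowest pigs. Replicate 8, lowest on O15000, was lowest for *PGD* and *MDH1* and 11th for *PGLS*, and replicate 5, lowest on A_72_P306288, was lowest for *TKT* and *TALDO1*.

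Across the 48 arrays, after the group means had been taken off, *ME1* (O15000) correlated with *PGD* at r = 0.88, with *MDH1* at 0.82, with *TKT* at 0.79, with *TALDO1* at 0.77, with *IDH1* at 0.60 and with *PGLS* at 0.16. The points share slide, scan date and the centring of each array, and with slide taken off as well the first 4 values were 0.88, 0.87, 0.79 and 0.81. *ME1* and *PGD* were correlated within each of the 4 groups, at r between 0.87 and 0.91 over 12 arrays each. Over 11152 other genes the median r with *ME1* was 0.04 and the 95th percentile 0.59. *PGD* ranked 14th among them, *MDH1* 59th, *TKT* 92nd and *TALDO1* 123rd. *MDH1*, which was not called by diet, thus varied from pig to pig with *ME1*. The value of *PGLS* differed between groups, from -0.27 in HF high RFI to 0.80 in LF low RFI pigs, the group of replicate 7.

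**Figure D4:**
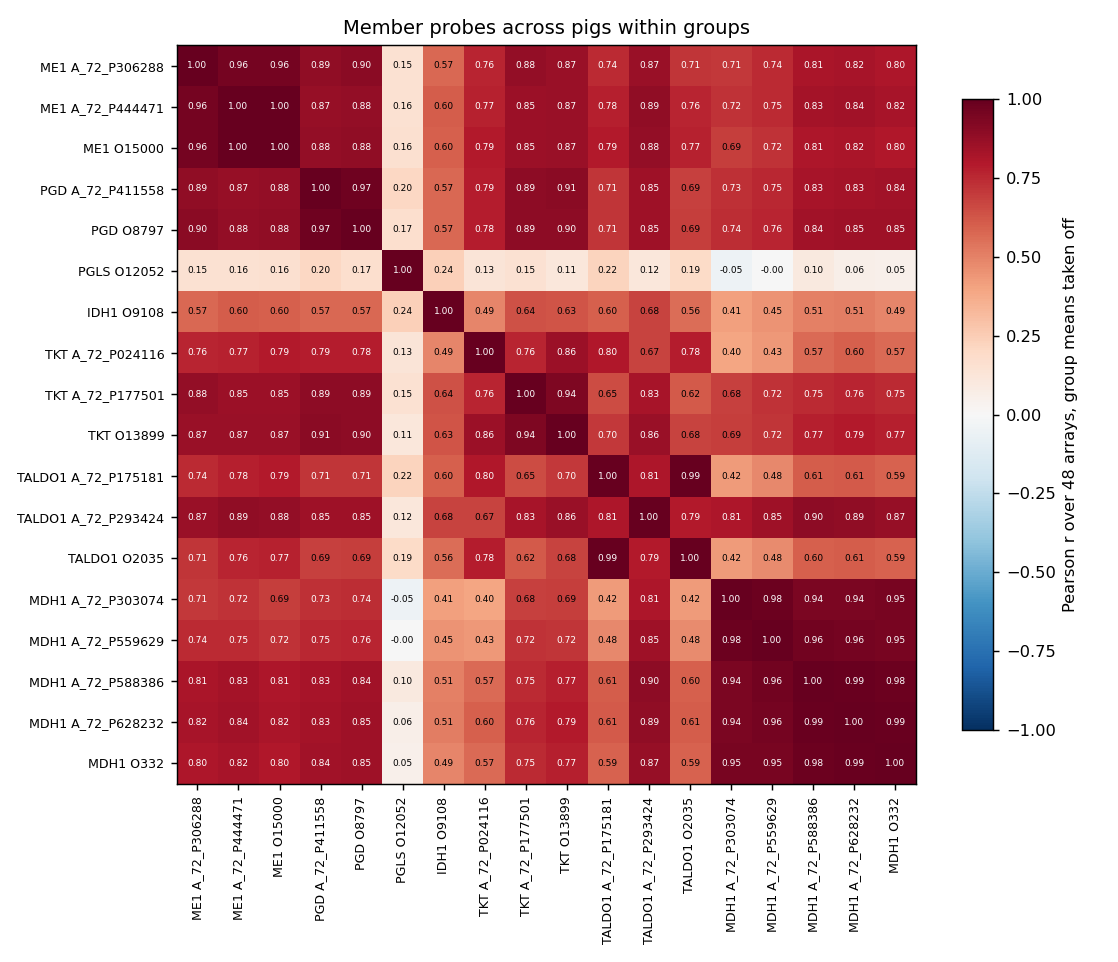
Pearson correlations between all 18 member probes over 48 arrays after the group means were taken off, with the probes in the same order on both axes and colour from -1 to 1. Probes of 1 gene form dark blocks, *ME1*, *PGD*, *TKT*, *TALDO1* and *MDH1* form 1 field of positive values, and *PGLS* has the palest rows.

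The genes most like each member were taken by the same measure, over 48 arrays and 1 probe per gene symbol. For *ME1* they included *ATP5L* (r = 0.92) and *ATP5B* (0.91), and for *PGD* *PDHB* (0.89) and *ABCB6* (0.89). For *MDH1* they were *ETFA* (0.93), *NDUFA8* (0.92) and *PGK1* (0.91), and for *TKT* *NAT6* (0.84), *BLVRB* (0.84) and *ECHS1* (0.83). For *TALDO1* they were *COX6B* (0.84), *CALM3* (0.83) and *COX6B1* (0.82), where *COX6B* and *COX6B1* were counted as separate symbols. The dim probes had weaker partners, *DNAJC15* (0.75), *VPS25* (0.74) and *SLC25A39* (0.74) for *IDH1* and *CHRNB2* (0.66), *FUT7* (0.59) and *SLC31A1* (0.59) for *PGLS*.

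Genes around these enzymes were followed in 6 lists with 72 genes in all, of which 58 were measured, each by its brightest probe. By diet 8 of the 58 were called, all 8 lower under the HF diet, beside 9.34% of all 11184 genes called lower, 3.32% called higher and 12.7% called in either direction. The median log2 fold change was -0.13 over the 58 genes and -0.04 over all genes, and 50 of the 58 were negative, beside 62.3% of all genes. After 75th percentile scaling 7 were called, all lower, and 44 were negative, beside 5539 negative, 584 called lower and 640 called higher of the 11184 genes.

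Of the other pentose phosphate genes, 1 of 8 was called. *TIGAR*, a phosphatase known to turn glucose toward this pathway, fell by 0.44 on the log2 scale (SE 0.12, limma adjusted p = 0.0152) and was not called within the first scan date (-0.17). Its probe was dim, with a median signal of 50.3 brightness units. The 8 genes had a median of -0.07, and 5 of them were negative.

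Of the other makers of NADPH and NADP, 2 of 11 were called, both lower. *NADK*, which phosphorylates NAD to NADP, fell by 0.33 (SE 0.10, limma adjusted p = 0.0211), and *NNT*, the mitochondrial transhydrogenase, fell by 0.24 (SE 0.07, limma adjusted p = 0.0288). Neither passed after blocking by array position or within the second scan date, and *NNT* also failed under the 75th percentile scaling, with each array's signal level as covariate and within the first date. The mitochondrial paralogues of members were not called by diet. *ME2* differed by -0.06 (95% interval -0.23 to 0.10), *ME3* by 0.02 (-0.15 to 0.18) and *IDH2* by -0.01 (-0.13 to 0.11). With the 75th percentile scaling 6 of the 11 genes were negative, beside 8 with median centring.

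Of the pyruvate-citrate and malate shuttle partners, 1 of 12 was called, and all 12 were negative, with a median of -0.23. *ACLY*, which splits citrate into acetyl-CoA and the oxaloacetate that *MDH1* takes up, fell by 0.56 (SE 0.17, limma adjusted p = 0.0269). Blocking by array position or keeping only the second scan date ended its call. *MDH2*, the mitochondrial paralogue of *MDH1*, was not called, at -0.25 (95% interval -0.47 to -0.04, limma adjusted p = 0.125).

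All 9 users of NADPH in lipid synthesis were negative, with a median of -0.13, and 7 of them were negative after 75th percentile scaling. Among the users in redox defence 2 of 9 were called. *TXNRD1*, thioredoxin reductase, fell by 0.51 (SE 0.08, limma adjusted p = 4.86e-05), with all 24 LF pigs above the HF mean, and *AKR1B1*, aldose reductase, by 0.38 (SE 0.09, limma adjusted p = 0.00384). Of NFE2L2, a regulator of antioxidant genes, and its usual targets, 2 of 12 were called, *TXNRD1* again and *GCLM*, the modifier subunit of the enzyme that starts glutathione synthesis, which fell by 0.39 (SE 0.08, limma adjusted p = 0.00163). *TXNRD1* and *GCLM* were called under each of 17 alternatives, and *AKR1B1* under all but the second scan date alone.

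**Figure D5:**
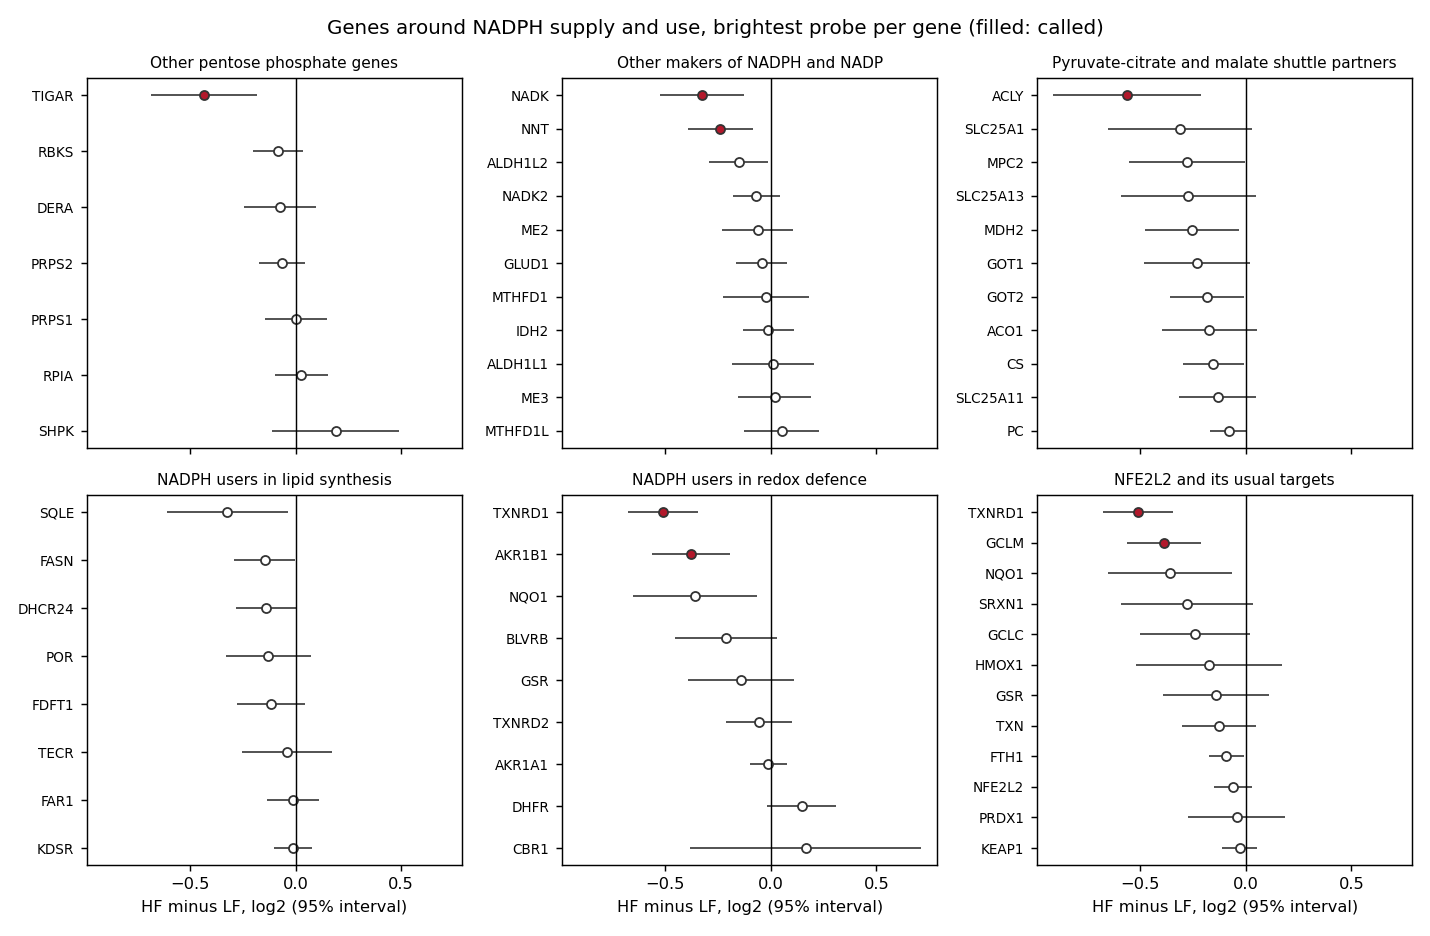
Diet differences of measured genes of the 6 lists, with the log2 fold change (HF minus LF) and its 95% interval (limma, 48 arrays) on the horizontal axis and 1 row per gene at its brightest probe. Filled points passed the cut-offs. The shuttle partners shown lie left of 0, and *TXNRD1* stands farthest from 0 relative to its interval.

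Markers of other cell types were compared beside these results. Of all 11184 genes, 12.7% were called by diet, 9.34% lower and 3.32% higher, and 62.3% were negative in sign. Of 8 adipocyte markers 1 was called by diet, *LEP* (-0.67), and the list's mean level lay between 7.21 and 7.85 in HF pigs and between 7.27 and 8.01 in LF pigs. Of 7 stromal and precursor markers 1 was called, *PDGFRA* (0.31), and all 7 were higher in HF pigs in sign, with list levels between 4.41 and 5.21 in HF and between 4.10 and 5.51 in LF pigs. None of 8 macrophage, 5 endothelial, 8 skeletal muscle and 4 measured red blood cell markers was called. The 4 red blood cell markers were negative in sign, with list levels between 0.76 and 2.34 in HF and between 0.51 and 2.43 in LF pigs. All 8 muscle markers were negative in sign, with list levels between -1.0 and 1.18 in HF and between -0.87 and 1.69 in LF pigs, and *MYH2* was near background (median signal 18.7). The part of these markers in the diet difference of *ME1* was not tested.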

How the data were processed

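The authors labelled each pig's RNA with Cy3 for a porcine array read in 1 colour and quantified the scans with Feature Extraction 10.7.3.1. Spot intensity, as deposited, is on a linear scale, and a deposited table holds the authors' normalized log2 values for 38987 probes, used as an alternative. Here the processed signal (background-subtracted by that software) was taken as log2 minus the array median over 44356 kept probes. Control spots (1319) and outlier flags were left out, and no spot was saturated. The number of arrays limits the precision. The array files list all probes as unmapped, so no positions are given, and the reference gene table (Sscrofa11.1) served for names only.

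A model with diet, line and interaction was fitted over the 48 arrays with limma 3.58.1 in R 4.3.3 (lmFit, eBayes with intensity trend, two-sided), tested on simulated data first, with the study's cut-offs in place of its two-way analysis of variance. Groups came from the sample titles. The members, gene lists and markers were chosen with earlier results of these data known. Every member probe is named, and of each list the called genes and the paralogues of members, and for each member the 3 genes most like it, apart from a few genes that are not reported here. In all, 18 alternatives were listed in advance and 1 was added after seeing the data.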

Additional observations from a re-analysis of the deposited data

How the results depend on the processing

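The 3 calls of member probes by diet, beside 13.1% of all probes, became 6 with array weights, beside 17.6%. These were 3 of *ME1*, and 1 each of *PGD*, *IDH1* and *TALDO1*. There were 4 in the first scan date alone (3 of *ME1* and 1 of *PGD*), beside 5.43% of all probes. Normexp background correction also gave 4 (3 of *ME1* and 1 of *IDH1*), beside 10.8%. Array position as a block gave 2 (both *ME1*), beside 9.66%, and the second scan date alone 0, beside 2.77%. With the brightest probe or the mean of the probes per gene, 1 of 7 genes was called, *ME1*, beside 12.6% and 12.2% of all genes. Within low RFI pigs the 0 calls became 1 with array weights. Within high RFI pigs they became 1 after quantile normalization, 2 with the authors' deposited table, and 3 with a slide or scan date block, weighted arrays, a covariate for each array's signal level or the first scan date alone. The replicate numbers were shared by groups and no label ties them to a litter or day. Same-numbered arrays correlated at a median r of 0.16, beside -0.02 for other pairs, and 17 of 48 arrays correlated best with their own number. Same-numbered arrays also always shared a slide, whose part in this was not tested. Not every same-numbered pair was positive (lowest -0.19), and the numbers were not taken as pairs. With the replicate block 3 member probes were called by diet and 3 within high RFI pigs. No alternative changed the 0 calls by line or by interaction. The 8 calls in the gene lists became 4 with array position as a block, 17 with array weights, 13 with the signal covariate and 3 in the second scan date alone. The shares of all probes called in these settings were 9.66%, 17.6%, 16.6% and 2.77%. The sign of uncalled diet differences turned in a few cases. In the first scan date alone *PGLS* was at -0.0081, and *MDH1* at -0.0216 on A_72_P303074, -0.0456 on A_72_P559629, -0.0175 on A_72_P588386 and -0.0049 on O332. With the signal covariate *MDH1* was at -0.0265 on A_72_P303074, -0.0123 on A_72_P559629 and -0.0019 on O332. *TALDO1* was at 0.0129 on A_72_P293424 in the second scan date alone. The line difference of *IDH1* was at -0.0529 in the first scan date alone. The diet difference of *ME1* kept its sign under all 17 alternatives per probe, between -1.19 and -0.81 on A_72_P306288 and between -0.84 and -0.57 on O15000, and blocking by array position also ended the call of A_72_P444471 (-0.58). Of all probes called by diet 57.0% were lower with median centring and 32.8% with the 75th percentile scaling, while the median of all probes moved from -0.02 to 0.02. The causes of these shifts were not tested. The dim probes of *PGLS* and *IDH1* limit what can be said of those genes.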
